A study of Mus musculus with 17 samples.

Results

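The 35 genes described here encode enzymes, and a transporter, of choline, methionine and one-carbon metabolism. They cover the synthesis of phosphatidylcholine, the oxidation of choline through betaine, the methionine cycle with transsulfuration, and the folate cycle. They were picked by gene symbol from textbook pathways and not by a measured value, though with earlier results of these data known. All 35 were found among the 52545 genes of the deposited table. All 35 also passed the filter on low values (at least 10 normalized counts in at least 5 libraries), as did 18624 genes in all.

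Choline reaches hepatocytes through transporters and is used in several ways. It is phosphorylated and built into phosphatidylcholine, the main phospholipid of membranes and of the lipoproteins that carry fat out of the liver, or it is oxidised in mitochondria to betaine, a methyl donor. Betaine and methyl-folate each return a methyl group to homocysteine to make methionine, from which S-adenosylmethionine (SAM), the general methyl donor, is made. The liver can also make phosphatidylcholine by methylating phosphatidylethanolamine with SAM, so a diet low in choline bears on both branches.

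Non-tumorous liver came from male C57BL/6J mice aged 32 weeks, with 1 library per mouse and the group of each taken from its label. The 6 CLDN1 mAb mice had received the liver carcinogen diethylnitrosamine (DEN) at 100 mg/kg in week 1 and CDA-HFD, a high-fat diet whose protein is replaced by amino acids and which is deficient in choline. They then had 1 injection of 500 µg of a monoclonal antibody to CLDN1, the tight junction protein claudin-1, per week for 16 weeks. The 6 vehicle mice had the same DEN and CDA-HFD, with weekly injections of PBS over the same 16 weeks. The 5 regular diet mice ate a regular diet and had no treatment. CDA-HFD and DEN were always given together, so what the diet does to these genes cannot be told apart from what the carcinogen and the injections do.

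Depth was estimated at 27.7 to 59.5 M fragments (M, 1e6) per library. The deposited totals were lower in vehicle livers (29.7 to 42.1 M) than in regular diet livers (48.2 to 74.6 M; two-sided exact permutation p = 0.00217). Regular diet replicate 1 stood apart from the other 4, with the largest total (74.6 M against 48.2 to 51.2 M) and the opposite sign on the second principal component of all genes tested (122.4 against -50.7 to -40.7). Results that rest on it are given with and without it. Of 14 hepatocyte markers, 12 could be tested. Tf was not matched, and the albumin gene Alb stood at 0 in each of the 17 libraries, where a 0 can also mean that the estimate failed. The other 12, among them Ttr, Apoa1 and Cps1, were present in all libraries, and 10 of the 12 were lower in vehicle than in regular diet livers. In bulk tissue, fewer hepatocytes and less RNA per hepatocyte cannot be told apart.

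Promoters are shown for genes on which the results below turn. Gnmt had the largest fall, and Mat2a and Mthfd1l were among the few genes that rose. Bhmt2 and Dmgdh, which both fell, start head to head. RefSeq (build GRCm38.p6) gave 39 promoter windows, each 250 bases before to 50 bases after a start, for 29 of the 35 genes. The 250 bases before the start are printed in lower case, and capitals mark a motif found in them: a sterol regulatory element (TCACNCCAC, here on the reverse strand) in Gnmt and a TATA box (TATAAA) in Mat2a. For Bhmt2 and Dmgdh the 133 bases between both starts are printed as on the plus strand. They hold none of the motifs searched.
Gnmt, chr17:46729166-46729415, minus strand: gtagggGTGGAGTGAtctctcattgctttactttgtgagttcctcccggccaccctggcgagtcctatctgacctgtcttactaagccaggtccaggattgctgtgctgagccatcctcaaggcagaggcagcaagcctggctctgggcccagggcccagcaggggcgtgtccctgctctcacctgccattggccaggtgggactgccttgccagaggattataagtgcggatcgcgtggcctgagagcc
Mat2a, chr6:72439557-72439806, minus strand: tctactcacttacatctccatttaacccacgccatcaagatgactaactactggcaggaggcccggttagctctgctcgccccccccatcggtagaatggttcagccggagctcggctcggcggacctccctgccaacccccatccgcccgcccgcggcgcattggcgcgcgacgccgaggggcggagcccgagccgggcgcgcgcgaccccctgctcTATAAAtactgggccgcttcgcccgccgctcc
Mthfd1l, chr10:3972825-3973074, plus strand: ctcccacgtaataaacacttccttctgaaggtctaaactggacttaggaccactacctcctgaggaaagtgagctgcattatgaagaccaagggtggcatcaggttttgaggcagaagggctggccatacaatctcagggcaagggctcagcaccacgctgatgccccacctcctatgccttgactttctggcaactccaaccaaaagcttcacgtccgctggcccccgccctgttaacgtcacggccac
Bhmt2 to Dmgdh, chr13:93674303-93674435, plus strand: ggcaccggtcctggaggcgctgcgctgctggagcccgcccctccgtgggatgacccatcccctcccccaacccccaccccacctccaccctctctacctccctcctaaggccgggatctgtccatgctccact

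In all, 5 motifs were searched on both strands of the whole windows, the other 3 being the ATF4 response element (TGATGNAAN), an HNF4 element (CAAAGTCCA) and a C/EBP element (TTGCNNAA). No overlap between motifs was removed. The ATF4 and HNF4 letters were in 0 of the 39 windows, against 3.95% and 0.475% of all 32851 RefSeq windows of this length. The C/EBP letters were in 3 windows (Aldh1l1, Cept1 and Etnk1), against 10.8% of all. TATAAA was in 2 (Chkb and Mat2a), against 13.6%. The sterol letters were in 3 windows of 2 genes (Gnmt and Pcyt1a), against 1.24%. A match is a description of the letters in the window only.

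Vehicle livers held less RNA of most of these genes than regular diet livers. Of the 35, 23 fell, 6 rose and 6 did not pass the threshold of an adjusted p of 0.05 (limma on log2(value + 1), Benjamini-Hochberg adjustment over the 18624 genes), so 82.9% changed. Of all genes tested, 50.5% changed, 20.7% lower and 29.8% higher. The median log2 fold change was -1.21 over the 35 genes and 0.04 over all genes tested, and 22 of the 35 differed at least 2-fold, against 36.7% of all. Vehicle and regular diet ranges did not overlap for 23 of the 35 genes, which held for 29.6% of all genes. The 6 genes that rose were Pcyt1b, Mthfd1l, Mthfd2, Aldh1l2, Mat2a and Mat2b. Every fold change below is a log2 difference on the log2(value + 1) scale, which understates the change of low genes, and every adjusted p is from the same limma fit.

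**Figure D1:**
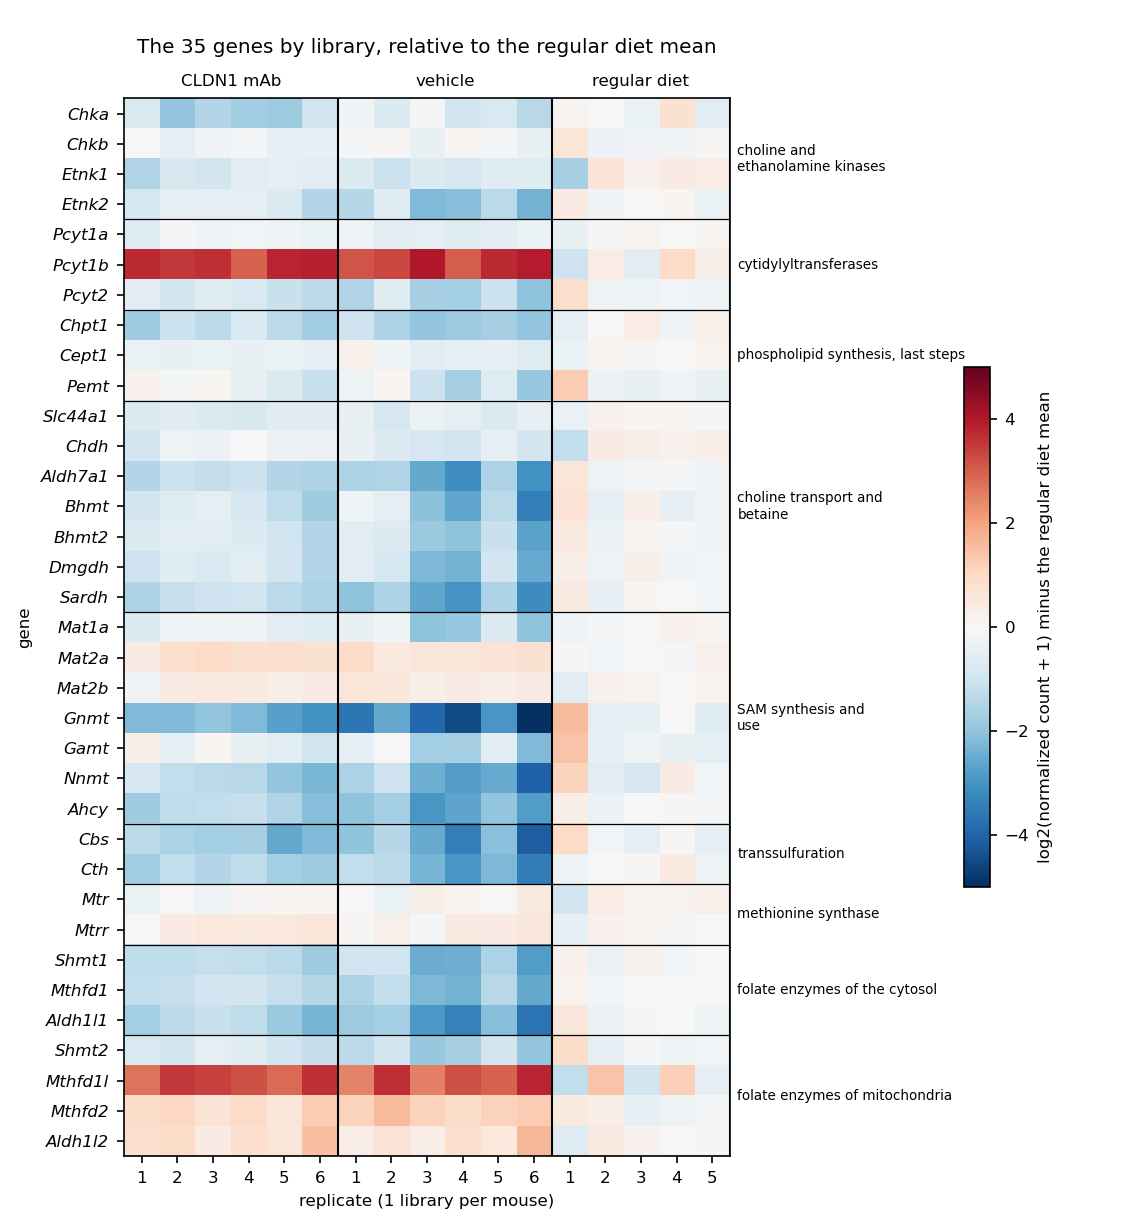
Each cell shows a gene (row) in a library (column) as log2(normalized count + 1) minus the regular diet mean of that gene, grouped by role. Blue cells fill most rows of the 6 CLDN1 mAb and 6 vehicle libraries, with Pcyt1b and Mthfd1l as the deepest red rows and vehicle replicates 3, 4 and 6 as the bluest columns.

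The split depended on how libraries were scaled. With every library brought to the same total, the median of all genes moved by 0.62, and 8 of the 35 genes were higher and 17 lower, while of all genes 9502 were higher and 1259 lower. Quantile normalization gave 5 higher and 16 lower, with 4447 and 5223 over all genes. Median-ratio size factors gave 6 and 26, with 5292 and 4314 over all genes. Without regular diet replicate 1, 5 were higher and 23 lower, with 5946 and 4703 over all genes. Of the 29 calls, 21 held under these 3 scalings, the other pseudocounts, filters, choice of groups and block, and without any 1 library; several of them were lost relative to hepatocyte markers, as given below. The other 8 were Chka, Pcyt1a, Slc44a1, Chdh, Bhmt, Mat1a, Gamt and Aldh1l2.

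The genes that fell were mostly those with high levels. Per kb of exon, the 6 genes that rose ranked 23rd to 35th of the 35 by their regular diet mean, and 19 of the 23 that fell were in the top 20. The regular diet mean is part of the fold change too. In CLDN1 mAb livers, whose values do not enter the fold of vehicle over regular diet, the 6 ranked 16th (Mat2a) to 35th (Aldh1l2). Levels per kb in regular diet livers ran from 111300 for Gnmt and 43198 for Mat1a to 5.90 for Aldh1l2 and 2.32 for Pcyt1b.

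In the pathway from choline and ethanolamine to phospholipid, 5 of 10 genes fell, 1 rose and 4 did not pass. The kinases come first. Chka, the choline kinase regarded as inducible, had 1599 to 3739 (median 2038) normalized counts in CLDN1 mAb livers, 2331 to 5697 (median 3716) in vehicle livers and 6773, 6177, 4812, 10242 and 4091 in regular diet livers. Its levels in vehicle overlapped both other groups, while every CLDN1 mAb liver lay below every regular diet liver. Chka was lower in vehicle than in regular diet livers with a log2 fold change and SE of -0.68 ± 0.28 (adjusted p = 0.0497). That call sat at the threshold. It was lost without regular diet replicate 1, 2 or 4 or vehicle replicate 2, 4, 5 or 6 (-0.68 to -0.49; adjusted p = 0.0676 to 0.155), with pseudocount 0.5 or no filter (adjusted p = 0.0502 and 0.0847), and with the same total per library (-0.05). Chkb, the other choline kinase, had 2389 to 3346 (median 2696) in CLDN1 mAb livers, 2525 to 3544 (median 3081) in vehicle livers and 4921, 2659.9, 2902, 2859 and 3433 in regular diet livers. Its groups overlapped, and it did not pass (-0.12 ± 0.16; adjusted p = 0.561), though with the same total per library it passed as higher (0.50; adjusted p = 0.0028). A readthrough gene on the same strand shares most of its exons (61.2% of exon bases overlap another gene), so its counts are uncertain.

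Etnk2, the ethanolamine kinase of liver, had 5398 to 11126 (median 9991) in CLDN1 mAb livers, 2894 to 9959 (median 4539.9) in vehicle livers and 19871, 13364, 15113, 16092 and 11913 in regular diet livers. All vehicle livers were below all regular diet livers, and the fold change was -1.68 ± 0.28 (adjusted p = 8.67e-05). Etnk1, a second ethanolamine kinase, had 1872 to 3914 (median 3325) in CLDN1 mAb livers, 2506 to 3502 (median 3339.8) in vehicle livers and 1693, 8389.9, 6160.2, 7179 and 6861 in regular diet livers. Regular diet replicate 1 was the lowest of all 17 libraries and the other 4 regular diet livers were above every vehicle liver. Etnk1 did not pass with all libraries (-0.75 ± 0.32; adjusted p = 0.0552), and without regular diet replicate 1 it fell by 1.17 (adjusted p = 3.67e-05). It also passed with median-ratio size factors (adjusted p = 0.0336) or with a block for replicate number (adjusted p = 0.0298).

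The Pcyt enzymes, which activate choline or ethanolamine phosphate with CTP, catalyse the step that sets the pace of this pathway, and their members moved apart. Pcyt1b (ENSMUSG00000035246, chromosome X, 93654863 to 93749951), the beta isoform of the choline enzyme, had 90.8 to 170.0 (median 154) normalized counts in CLDN1 mAb livers and 95.5 to 190.4 (median 139.9) in vehicle livers, against 4.91, 14.4, 7.0, 22.02 and 13.7 in regular diet livers. Each of the 12 livers on CDA-HFD was above each regular diet liver, though all levels were low. Pcyt1b rose by 3.52 ± 0.32 in vehicle against regular diet (adjusted p = 1.01e-07), the largest rise of the 35 genes. Pcyt1a, the alpha isoform and the main one by level, had 2784 to 4264 (median 3858) in CLDN1 mAb livers, 2913 to 3789.8 (median 3169.6) in vehicle livers and 3424, 4630.0, 4956, 4391 and 4846 in regular diet livers. It fell by a small amount (-0.44 ± 0.13; adjusted p = 0.00975), though with the same total per library its difference was above 0 (0.18) and with quantile normalization it did not pass (adjusted p = 0.538). Pcyt2, which activates ethanolamine phosphate, was at 8753 to 22882 (median 11761) in vehicle livers against 29203 to 64965 (median 29748) in regular diet livers and fell (-1.43).

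**Figure D2:**
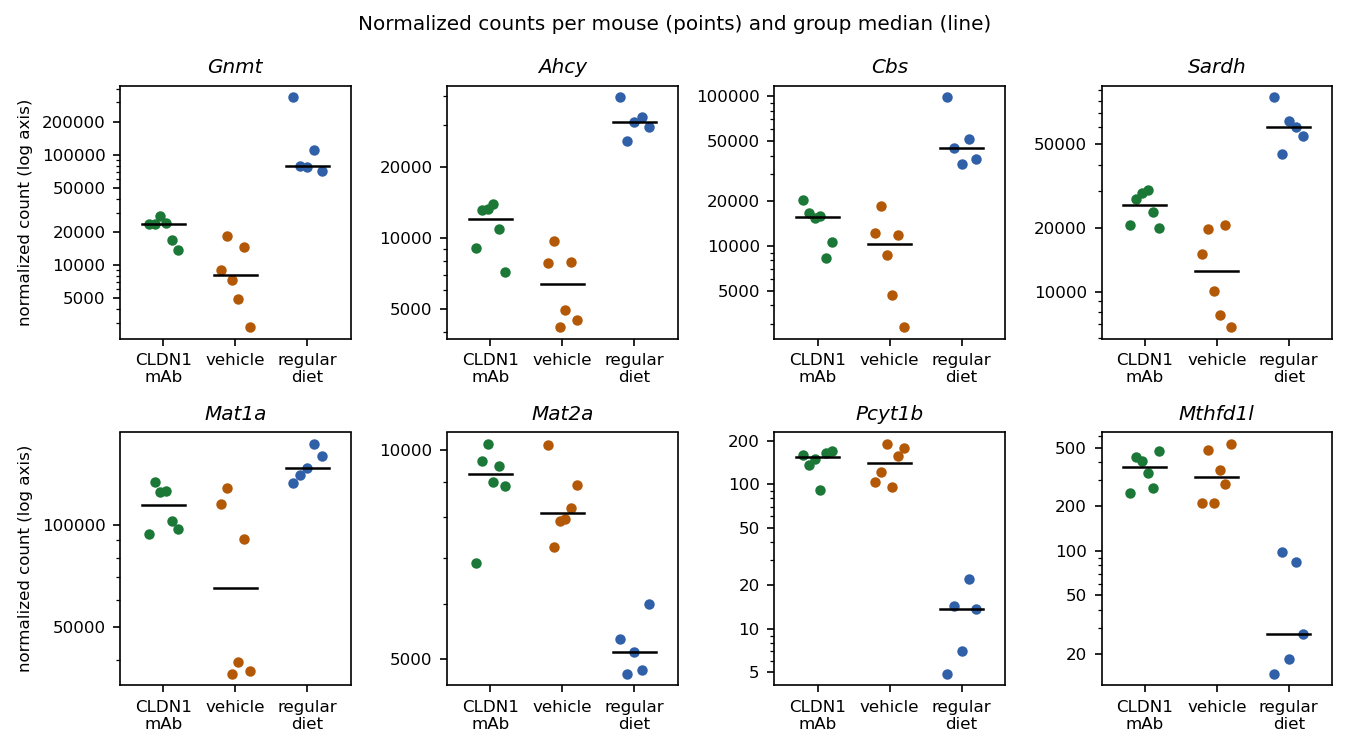
Normalized counts of 8 genes (log axes) in each mouse of the 3 groups, with the group median as a line. Gnmt, Ahcy, Cbs and Sardh have their lowest median in the vehicle group and their highest in the regular diet group, whereas Mat2a, Pcyt1b and Mthfd1l are above every regular diet liver in all 12 CLDN1 mAb and vehicle livers.

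Of the last steps, Chpt1, the choline phosphotransferase, fell (-1.65), with 3364 to 6377 (median 3948) in vehicle livers and 9617 to 17003 (median 12878) in regular diet livers. Cept1, which joins choline or ethanolamine to diacylglycerol, did not pass (-0.33 ± 0.14; adjusted p = 0.0639). It passed without regular diet replicate 1 (-0.41; adjusted p = 0.0169) or vehicle replicate 1 (-0.44; adjusted p = 0.00278), and with median-ratio size factors (adjusted p = 0.031). Part of its exons (24.9% of bases) overlap other genes on the opposite strand. Pemt, which methylates phosphatidylethanolamine to phosphatidylcholine, had 9115 to 22849 (median 16998) in CLDN1 mAb livers, 5191 to 21145 (median 10921) in vehicle livers and 46752, 15874, 15122, 16647 and 15173 in regular diet livers. The other 4 regular diet livers fell within the vehicle range and only replicate 1 stood above it. Pemt did not pass (-0.90 ± 0.38; adjusted p = 0.0574), but passed without vehicle replicate 1 (-1.03; adjusted p = 0.0354) or 2 (-1.10; adjusted p = 0.0201). It also passed with median-ratio size factors (adjusted p = 0.049) or with the replicate block (adjusted p = 0.04). Without regular diet replicate 1 its difference was -0.58 (adjusted p = 0.163).

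All 7 genes of choline transport and betaine were lower in vehicle than in regular diet livers, with a median of -1.59. With the same total per library Slc44a1 turned to 0.09 and Chdh was at -0.07, and neither passed. With quantile normalization Slc44a1, Chdh and Bhmt did not pass. Sardh (chromosome 2, 27188393 to 27248337), the mitochondrial dehydrogenase that turns sarcosine into glycine, had 20103 to 30236 (median 25584) in CLDN1 mAb livers, 6794 to 20686 (median 12528) in vehicle livers and 83102, 44636, 64323, 60084 and 54480.1 in regular diet livers. No vehicle or CLDN1 mAb liver reached the lowest regular diet liver. Sardh fell, with a log2 fold change of -2.30 ± 0.28 in vehicle livers (adjusted p = 2.57e-06). Aldh7a1, a dehydrogenase that takes betaine aldehyde to betaine and also acts in lysine breakdown, had 14487 to 20342 (median 17181) in CLDN1 mAb livers, 4956 to 15118 (median 10732) in vehicle livers and 64636, 35340.5, 41164, 39938 and 37400.4 in regular diet livers. The regular diet livers were again above all others, and Aldh7a1 fell, with a fold change of -2.22 ± 0.29 (adjusted p = 7.00e-06).

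Bhmt, which uses betaine to make methionine from homocysteine, had 24569 to 61526 (median 45374) in CLDN1 mAb livers, 7959 to 72562 (median 26454) in vehicle livers and 140284, 59785, 106727, 63609.5 and 74643 in regular diet livers. Among vehicle livers it spanned 9.12-fold, the widest of the 35 genes, and replicates 1 and 2 lay at the regular diet level or just under it. Bhmt fell (-1.69 ± 0.47; adjusted p = 0.00602), though not with quantile normalization (-0.84; adjusted p = 0.0522). Bhmt shares 99.4% of 1869 bases with the gene Gm5096, which was listed at 16.99 to 112.2 in vehicle livers and 99.1 to 321.8 in regular diet livers, so a small part of its reads could be misplaced. Bhmt2, its neighbour on chromosome 13, which uses S-methylmethionine, had 4714 to 9017 (median 7912) in CLDN1 mAb livers, 2059 to 8780.1 (median 4853) in vehicle livers and 18176, 10576, 13788, 12421 and 11488 in regular diet livers. Dmgdh, which oxidises the dimethylglycine left by Bhmt, had 10591 to 20301 (median 16273) in CLDN1 mAb livers, 5081 to 20124 (median 10624) in vehicle livers and 35612, 24515, 36439, 26028 and 26802 in regular diet livers. Both were lower in every vehicle liver than in any regular diet liver. The fold changes of this pair, which starts from the 133-base stretch printed above, were -1.48 ± 0.31 for Bhmt2 and -1.59 ± 0.33 for Dmgdh (adjusted p = 0.000766 and 0.000669). Other genes of the 35 fell by like amounts, such as Pcyt2 (-1.43), Shmt2 (-1.44) and Chpt1 (-1.65).

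The first genes of the branch moved least. Chdh, the mitochondrial choline dehydrogenase, had 5642 to 10687 (median 8876) in CLDN1 mAb livers, 5619 to 8433 (median 6409) in vehicle livers and 4667, 14704, 13214, 12542 and 13632 in regular diet livers. Regular diet replicate 1 was the lowest of the 17 libraries, and the other 4 regular diet livers were above all the rest. With all libraries Chdh fell in vehicle livers, with a fold change of -0.70 ± 0.25 (adjusted p = 0.029), and without that library the difference was -1.004. The call was lost without any 1 of regular diet replicates 2 to 5 or vehicle replicates 3, 4 and 6 (adjusted p = 0.0545 to 0.0807). Slc44a1, a choline transporter, had 1821 to 2096 (median 1994) in CLDN1 mAb livers, 1783 to 2490.1 (median 2319) in vehicle livers and 2498, 3625, 3346, 3506 and 2935 in regular diet livers. The groups on CDA-HFD lay below regular diet, the highest vehicle liver just under regular diet replicate 1, and Slc44a1 fell (-0.53 ± 0.12; adjusted p = 0.00158), with the reversal at the same total named above.

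Among 7 genes that make or use SAM, 5 fell and 2 rose. The synthetases went opposite ways. Mat1a (chromosome 14, 41105035 to 41124412), which encodes the SAM synthetase of adult hepatocytes, had 93876 to 132875 (median 113835) in CLDN1 mAb livers, 36619 to 127866 (median 65012) in vehicle livers and 132472, 139571, 145945, 172170.0 and 158897 in regular diet livers. Vehicle replicates 3, 4 and 6 were at 36619 to 39601 and the other 3 at 90424 to 127866, still under the lowest regular diet liver. Mat1a fell (-1.21 ± 0.33; adjusted p = 0.00548), though not with quantile normalization (-0.11; adjusted p = 0.711) or the same total (-0.59; adjusted p = 0.0636). Mat2a (chromosome 6, 72432799 to 72439558), the form of extrahepatic and dividing cells, had 6870.2 to 10215 (median 9247) in CLDN1 mAb livers and 7240.2 to 10183 (median 8118) in vehicle livers, against 5346, 4761, 5114, 4821 and 6007 in regular diet livers. All 12 livers on CDA-HFD exceeded all 5 on regular diet, and Mat2a rose by 0.69 ± 0.13 in vehicle livers (adjusted p = 0.000238). The antisense gene Particl overlaps 11.3% of its exon bases and was listed at no more than 173.9 in any library. Mat2b, the regulatory subunit that binds the Mat2a product, rose by 0.44 ± 0.15 (adjusted p = 0.0214).

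Gnmt (ENSMUSG00000002769, chromosome 17, 46725664 to 46729168), the glycine methyltransferase that uses up spare SAM, fell more than any other of the 35 genes. It had 13788 to 27990.4 (median 23664) in CLDN1 mAb livers, 2737 to 18475 (median 8194) in vehicle livers and 332208, 79743, 77448, 110232 and 71502 in regular diet livers. Its lowest regular diet liver was above its highest vehicle and CLDN1 mAb liver, and regular diet replicate 1 was far above the other 4. The log2 fold change was -3.80 ± 0.45 in vehicle against regular diet (adjusted p = 2.14e-06), and -3.40 without regular diet replicate 1. Ahcy (chromosome 2, 155059310 to 155074497), the hydrolase that clears S-adenosylhomocysteine, the product of every methylation, had 7191 to 13895 (median 12027) in CLDN1 mAb livers, 4194 to 9671 (median 6397) in vehicle livers and 39389, 25663, 30901, 32581 and 29388 in regular diet livers. The regular diet livers were again above all others, and Ahcy fell, with a fold change of -2.34 ± 0.23 (adjusted p = 2.92e-07). A near copy of Ahcy, Gm4737, was listed at no more than 82.2 in any library.

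Nnmt, which methylates nicotinamide, had 1628 to 4566 (median 3047) in CLDN1 mAb livers, 484 to 3854 (median 1416) in vehicle livers and 16978, 5417, 4422, 10405 and 7217 in regular diet livers. Every vehicle liver was below every regular diet liver, whereas the CLDN1 mAb and regular diet ranges just overlapped. Nnmt fell (-2.39 ± 0.44; adjusted p = 0.000219). Gamt, which makes creatine, had 1558 to 7107 (median 3528) in vehicle livers and 18891, 5403, 6266, 5576 and 5138 in regular diet livers. The other 4 regular diet livers lay within the vehicle range and replicate 1 far above it. Its fold change was -1.09 ± 0.40 (adjusted p = 0.0319), and the call was lost without regular diet replicate 1 (-0.74; adjusted p = 0.0934) or vehicle replicate 3, 4 or 6 (adjusted p = 0.0694 to 0.0788).

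Both transsulfuration genes, which carry homocysteine to cysteine, fell. Cbs (chromosome 17, 31608894 to 31637238), the first enzyme, had 8323 to 20176 (median 15549.9) in CLDN1 mAb livers, 2871 to 18443 (median 10225) in vehicle livers and 97765, 45282, 34941, 51888 and 37706 in regular diet livers. Cth, the second, had 8593 to 12858 (median 10011) in CLDN1 mAb livers, 2707 to 12793 (median 6126) in vehicle livers and 25293, 29420.4, 31066, 41572 and 25289 in regular diet livers. For both, the groups on CDA-HFD overlapped each other and not regular diet. The fold change was -2.59 ± 0.40 for Cbs (adjusted p = 4.12e-05) and -2.25 ± 0.32 for Cth (adjusted p = 1.58e-05). Mtr and Mtrr, methionine synthase and its reductase, which return the methyl group of folate to homocysteine in all cells, did not pass (0.09 ± 0.21 and 0.28 ± 0.16; adjusted p = 0.766 and 0.151). Their levels were low, 521 to 896 (median 702) for Mtr and 325 to 489 (median 422) for Mtrr in vehicle livers against 337 to 858 (median 749) and 250.6 to 389.8 (median 344) in regular diet livers. Mtr turned to -0.16 without regular diet replicate 1, and both turned negative with quantile normalization. With the same total per library Mtrr passed as higher (0.90; adjusted p = 0.00366).

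The folate genes are given by compartment. All 3 cytosolic enzymes fell, and of 4 mitochondrial ones 3 rose and 1 fell. Of the 3 that rose, Aldh1l2 turned to -0.07 with quantile normalization. These 3 also ranked 32nd to 34th of the 35 genes per kb in regular diet livers, and Shmt2, which fell, ranked 15th. Whether the split goes with compartment or with level was not tested. Aldh1l1 (chromosome 6, 90486427 to 90600203), which oxidises formyl-folate to CO2 in the cytosol, had 17009 to 38453 (median 29914) in CLDN1 mAb livers, 6522 to 25677 (median 15297) in vehicle livers and 125126, 68901, 81353, 85309.8 and 71088 in regular diet livers. Mthfd1, the cytosolic enzyme that interconverts one-carbon folates, had 5690.5 to 8168 (median 6923) in CLDN1 mAb livers, 2639 to 6533 (median 4284) in vehicle livers and 17157, 13958, 15288, 15236 and 15362 in regular diet livers. Shmt1, the cytosolic serine hydroxymethyltransferase, had 3842 to 5927 (median 5456) in CLDN1 mAb livers, 1889 to 6665 (median 3389) in vehicle livers and 15110.4, 10532, 15272, 11972 and 13376 in regular diet livers. In each of these the regular diet livers were above all 12 others. Part of the exons of Aldh1l1 (13.4% of bases) overlap other genes, among them Gm15756 on the opposite strand. The fold changes in vehicle livers were -2.60 ± 0.34 for Aldh1l1, -1.88 ± 0.21 for Mthfd1 and -1.88 ± 0.29 for Shmt1 (adjusted p = 6.15e-06, 1.13e-06 and 3.28e-05).

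Mthfd1l (ENSMUSG00000040675, chromosome 10, 3973118 to 4167081), the mitochondrial synthetase that releases formate, had 245 to 475 (median 369.9) in CLDN1 mAb livers and 210.4 to 529 (median 318) in vehicle livers, against 14.7, 98.4, 18.4, 83.9 and 27.5 in regular diet livers. The regular diet livers varied more than 6-fold among themselves and still lay below every other liver. Mthfd1l rose by 3.11 ± 0.43 (adjusted p = 1.20e-05). Mthfd2, the mitochondrial dehydrogenase found in dividing cells, had 207 to 325 (median 258) in CLDN1 mAb livers and 256 to 407 (median 300.3) in vehicle livers, against 189, 167, 99.8, 111 and 125 in regular diet livers. It too rose without overlap (1.203 ± 0.19; adjusted p = 4.21e-05). Aldh1l2, the mitochondrial partner of Aldh1l1, had 57.6 to 125 (median 77.4) in CLDN1 mAb livers, 54.8 to 138 (median 67.2) in vehicle livers and 27.02, 59.1, 49.9, 44.0 and 41.2 in regular diet livers. Its ranges overlapped, and its rise (0.75 ± 0.27; adjusted p = 0.0305) was lost without regular diet replicate 1 or 5 or vehicle replicate 4 or 6 (adjusted p = 0.0541 to 0.0768). Part of its exons (14.1% of bases) overlap D10Wsu102e on the opposite strand, which was listed at 2573 to 3748 in CLDN1 mAb livers, 2647 to 3630 in vehicle livers and 1759 to 3958 in regular diet livers, far above Aldh1l2. The strand setting is not known, so the level of Aldh1l2 and its ratio to Aldh1l1 are uncertain. Shmt2, the mitochondrial hydroxymethyltransferase, had 7106 to 11811 (median 9143) in CLDN1 mAb livers, 4149 to 8717 (median 5895) in vehicle livers and 31066, 11786, 15728, 13754 and 14857 in regular diet livers. It fell (-1.44 ± 0.25; adjusted p = 0.000122), as the cytosolic genes did.

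Set against its major partner and per kb of exon, the minor gene of several pairs took a larger share in livers on CDA-HFD. Mat2a amounted to 5.55 to 7.14% of Mat1a in CLDN1 mAb livers, 4.38 to 18.5% in vehicle livers and 2.16 to 3.12% in regular diet livers. Pcyt1b was 3.11 to 7.90% of Pcyt1a in CLDN1 mAb livers, 3.80 to 8.14% in vehicle livers and 0.195 to 0.694% in regular diet livers. Mthfd1l was 3.70 to 8.37% of Mthfd1 in CLDN1 mAb livers, 3.99 to 20.1% in vehicle livers and 0.0860 to 0.706% in regular diet livers. In these pairs each CLDN1 mAb and vehicle liver was above each regular diet liver. Between CLDN1 mAb and vehicle livers all of these ratios overlapped. Mthfd2 was 3.46 to 7.27% of Mthfd1 in CLDN1 mAb livers, 6.43 to 15.7% in vehicle livers and 0.831 to 1.52% in regular diet livers, with overlap between CLDN1 mAb and vehicle at 1 end only. A ratio shows unequal change of the pair. These are descriptions with no test.

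**Figure D3:**
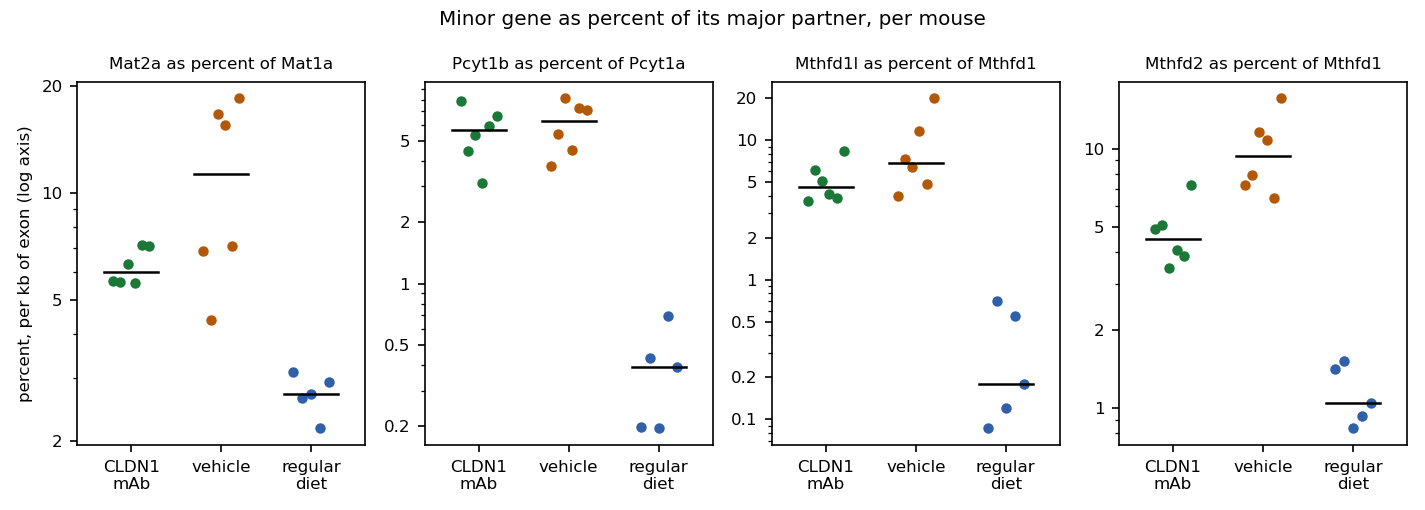
The minor gene as a percentage of its major partner, per kb of exon (log axes), in each mouse, with the group median as a line. Medians for Mat2a of Mat1a were 5.99% in CLDN1 mAb, 11.3% in vehicle and 2.71% in regular diet livers, and regular diet is lowest in every panel.

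For Bhmt2 and Bhmt the groups overlapped. Bhmt2 stood at 34.2 to 44.8% of Bhmt per kb in CLDN1 mAb livers, 28.2 to 60.4% in vehicle livers and 30.2 to 45.6% in regular diet livers. Shmt2 exceeded Shmt1 in all 17 livers, at 198 to 248.9% in CLDN1 mAb, 126 to 274% in vehicle and 129 to 257% in regular diet livers. Aldh1l2 was 0.0902 to 0.443% of Aldh1l1 in CLDN1 mAb livers, 0.138 to 1.27% in vehicle livers and 0.0130 to 0.0516% in regular diet livers, so that each CLDN1 mAb and vehicle liver was above each regular diet liver here too. Chka was 15.5 to 31.6% of Chkb in CLDN1 mAb livers, 22.8 to 57.4% in vehicle livers and 30.3 to 91.2% in regular diet livers.

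Hepatocyte markers fell with these genes, so each gene was also set relative to them, an alternative chosen after seeing the data. The geometric mean of the 12 markers was 81291 to 143190 normalized counts in CLDN1 mAb livers, 32492 to 146470 in vehicle livers and 165500 to 338770 in regular diet livers. It was lowest in vehicle replicates 3, 4 and 6, which also held the 3 lowest vehicle values for 21 of the 35 genes. The share of all genes with that pattern was not counted. On the first principal component of all genes tested, these 3 libraries were at 106.3 to 112.1, and vehicle replicates 1, 2 and 5 at 12 to 51.3. Relative to the markers, 8 of the 23 genes that fell were still lower in vehicle livers: Gnmt (-2.32 ± 0.24; adjusted p = 2.93e-07), Aldh1l1 (-1.12 ± 0.16), Cbs (-1.11 ± 0.19), Nnmt (-0.91 ± 0.26), Ahcy (-0.85 ± 0.24), Sardh (-0.82 ± 0.21), Cth (-0.76 ± 0.25) and Aldh7a1 (-0.73 ± 0.19). Of all 19005 genes tested on that scale, 1.41% were lower and 74.3% higher. The same 8 were lower without regular diet replicate 1, then with Shmt1 and Mthfd1, against 1.8% of all genes.

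That scale moved the median of all genes up by 1.46, so a larger difference follows from it for any gene that rose. On it 13 of the 35 were higher, against 74.3% of all genes. The 13 included the 6 that rose as deposited (Mat2a 2.17 ± 0.36, Mthfd1l 4.55 ± 0.61). The median over the 35 was 0.27 against 1.51 over all genes. Mat1a (0.27 ± 0.21; adjusted p = 0.243), Bhmt (-0.20 ± 0.21; adjusted p = 0.38), Bhmt2 (0.01 ± 0.19) and Dmgdh (-0.11 ± 0.21) did not pass relative to the markers. Markers of several other cell types moved the other way: 8 of 10 macrophage, 7 of 8 fibroblast, 5 of 5 cholangiocyte, 4 of 5 T cell and 7 of 8 cell cycle markers rose in vehicle against regular diet livers. Of 5 endothelial markers, 0 rose and 2 fell (median -1.02). The summed macrophage markers were 63437 to 274630 normalized counts in vehicle livers and 9866 to 42657 in regular diet livers. The part of these cells in the rise of Mat2a, Pcyt1b, Mthfd1l and Mthfd2 was not tested. Periportal hepatocyte markers fell in 6 of 7 cases, and pericentral ones in 2 of 7, with 1 higher.

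**Figure D4:**
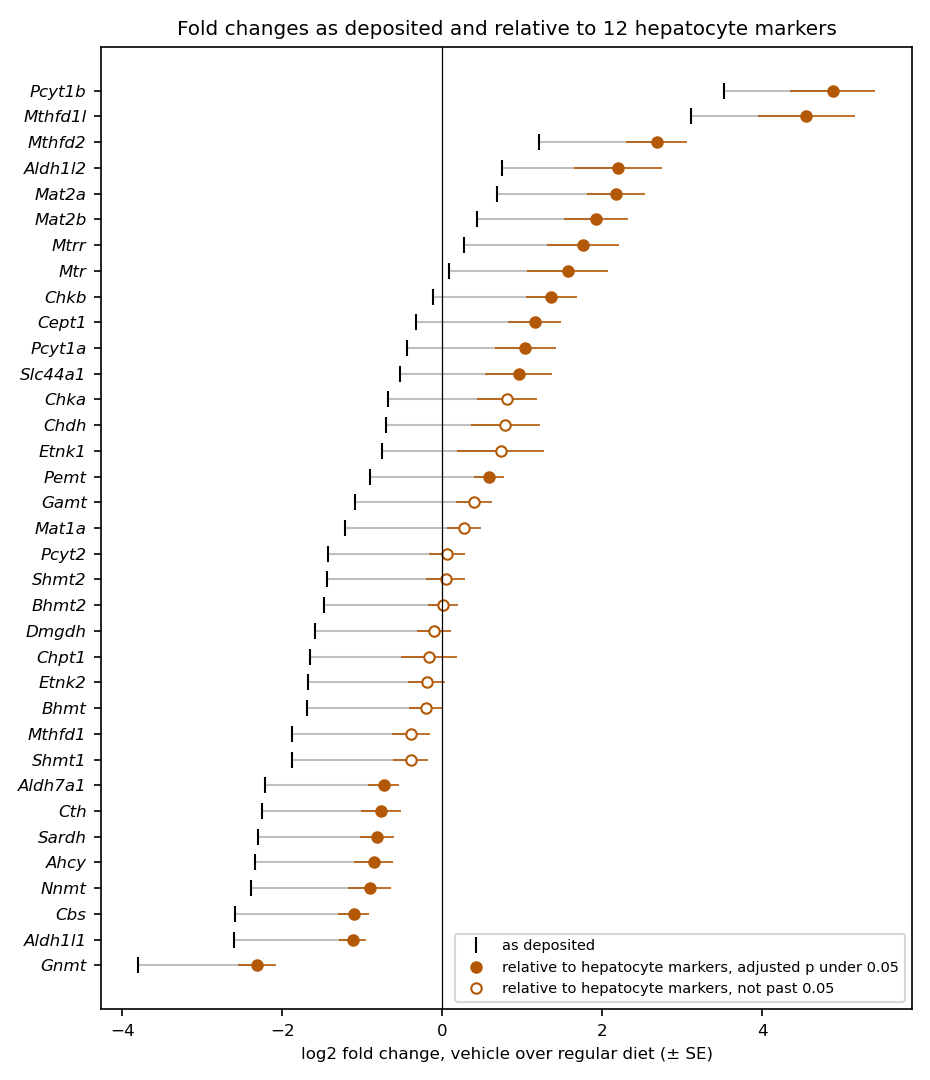
Log2 fold changes of the 35 genes, vehicle over regular diet, as deposited (ticks) and relative to the geometric mean of 12 hepatocyte markers (circles, with SE). Gnmt at -2.32, Aldh1l1 and Cbs remain the lowest of the 8 filled circles below 0, and genes from Bhmt to Mat1a lie near 0.

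Antibody treatment, the question of the series, gave no call among these genes. In CLDN1 mAb against vehicle livers, 0 of the 35 passed, as 0 of all 18624 genes did (percent called 0; smallest adjusted p = 0.659). At an unadjusted p under 0.05 there were 14 of the 35 genes, and 7.47% (1391) of all genes. Of the 35, 27 had a value above 0, and the median was 0.55, against -0.05 over all genes. CLDN1 mAb and vehicle ranges overlapped for all 35 genes; they did not overlap for 0.322% of all genes. All 12 hepatocyte markers tested were above 0 too, with a median of 0.58 and 0 called. Relative to those markers, the median over the 35 was -0.09 and 0 passed.

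The smallest p on the higher side belonged to Sardh (1.04 ± 0.27; unadjusted p = 0.00107 in limma, adjusted p = 0.659), Ahcy (0.83 ± 0.22) and Mthfd1 (0.74 ± 0.20). In each of these, all 6 CLDN1 mAb livers were above the vehicle mean, and the highest vehicle livers overlapped them. The largest difference was in Gnmt (1.41 ± 0.43; adjusted p = 0.659), with medians of 23664 in CLDN1 mAb and 8194 in vehicle livers. On the lower side stood Chka (-0.75 ± 0.26; adjusted p = 0.659), whose median was 2038 in CLDN1 mAb and 3716 in vehicle livers, then Mthfd2 (-0.29 ± 0.18) and Slc44a1 (-0.15 ± 0.12). For the genes with the largest rise over regular diet, Pcyt1b was at 0.06 ± 0.30 and Mthfd1l at 0.11 ± 0.41, and both turned below 0 with the same total per library. A p that misses the threshold does not show that the groups are equal.

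Spread between mice was widest in the vehicle group. The median SD over the 35 genes was 0.31 on the log2 scale in CLDN1 mAb, 0.51 in vehicle and 0.35 in regular diet livers. In CLDN1 mAb livers 0 genes spanned over 4-fold between the lowest and the highest mouse, against 8 genes in vehicle and 4 in regular diet livers. Without regular diet replicate 1 that was 1 gene, Mthfd1l, in regular diet livers. The widest were Nnmt in CLDN1 mAb (2.80-fold), Bhmt in vehicle (9.12-fold) and Mthfd1l in regular diet livers (6.68-fold). The difference in spread was not tested.

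**Figure D5:**
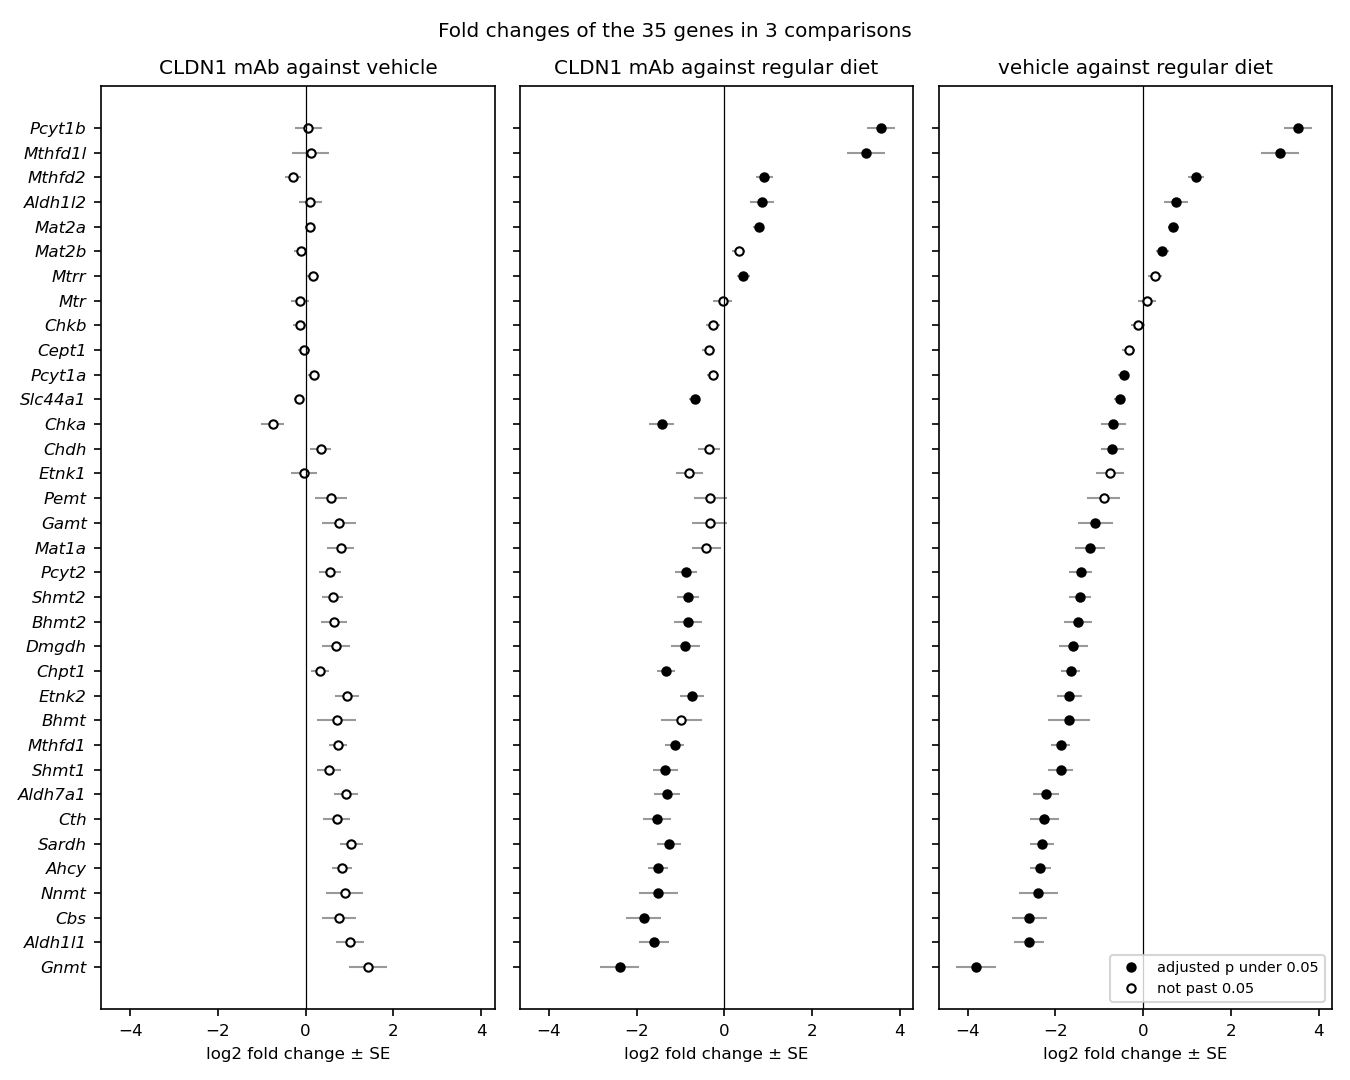
Log2 fold changes with SE for the 35 genes in 3 comparisons, ordered by vehicle against regular diet. Filled points have a limma adjusted p under 0.05: 0 in CLDN1 mAb against vehicle, 24 in CLDN1 mAb against regular diet and 29 in vehicle against regular diet.

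CLDN1 mAb against regular diet livers gave 18 genes lower and 6 higher, with 11 not past the threshold, while 38.9% of all genes changed (24.8% higher, 14.1% lower). Ranges did not overlap for 21 of the 35, against 29% of all genes. The 6 higher were Pcyt1b (3.58 ± 0.32; adjusted p = 1.22e-07), Mthfd1l (3.22 ± 0.43), Mthfd2 (0.91 ± 0.19), Aldh1l2 (0.85 ± 0.27), Mat2a (0.79 ± 0.13) and Mtrr (0.43 ± 0.16). Gnmt was again the lowest (-2.39 ± 0.45; adjusted p = 0.000393), followed by Cbs (-1.84 ± 0.40), Aldh1l1 (-1.60 ± 0.34) and Cth (-1.54 ± 0.32). This comparison shares its regular diet livers with that of vehicle, so their likeness is no separate evidence. Side by side, Mat1a was at -0.42 in CLDN1 mAb and -1.21 in vehicle over regular diet, Bhmt at -0.99 and -1.69, Gamt at -0.34 and -1.09, and Chka at -1.43 and -0.68. Mat1a, Bhmt and Gamt, and also Pcyt1a, Chdh and Mat2b, passed against regular diet in vehicle and not in CLDN1 mAb livers. With only the groups compared in the limma fit, Bhmt passed in CLDN1 mAb against regular diet too (adjusted p = 0.0143). Whether the CLDN1 mAb and vehicle groups differ is what CLDN1 mAb against vehicle tests, and none of these genes passed there.

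Of the 24 calls, 15 held under the same changes, again leaving aside the scaling to hepatocyte markers. The others were Etnk2, Pcyt2, Slc44a1, Bhmt2, Dmgdh, Mtrr, Shmt2, Mthfd2 and Aldh1l2. With quantile normalization only Slc44a1 of these still passed, and Mthfd2 was at 0.31, Aldh1l2 at 0.19 and Mtrr at 0.04. With the same total per library, Etnk2, Pcyt2, Slc44a1, Bhmt2, Dmgdh and Shmt2 did not pass. Etnk2, Bhmt2, Dmgdh and Mtrr were near the threshold. Etnk2 was lost without regular diet replicates 1 to 4 or CLDN1 mAb replicates 1, 5 and 6, each left out alone (adjusted p = 0.0589 to 0.11). Bhmt2 was lost without regular diet replicates 1, 3, 4 and 5 or CLDN1 mAb replicates 1, 4, 5 and 6 (0.0555 to 0.0987), and Dmgdh without the same regular diet replicates or CLDN1 mAb replicates 1, 3, 5 and 6 (0.0531 to 0.092). Mtrr was lost without regular diet replicates 1, 4 and 5 or CLDN1 mAb replicates 2 to 6 (0.0535 to 0.0731), and Aldh1l2 without CLDN1 mAb replicate 6 (0.0511). Without regular diet replicate 1, Etnk1 (-1.21; adjusted p = 3.62e-05), Chdh (-0.67; 0.00336), Cept1 (-0.44; 0.0139) and Pcyt1a (-0.35; 0.0222) passed. Mat2b passed without CLDN1 mAb replicate 1 (0.42; adjusted p = 0.0247). Relative to the hepatocyte markers 5 were lower (Gnmt -1.54 ± 0.24, Cbs -0.99 ± 0.19, Aldh1l1, Cth and Ahcy) and 8 higher, against 1.27% and 35.4% of all genes.

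Genes of neighbouring pathways are given from 9 lists, whose counts in vehicle against regular diet stand against 50.5% of all genes called. In serine synthesis and glycine cleavage, 2 of 9 genes rose in vehicle against regular diet livers, Psat1 (4.39) and Phgdh (3.60), which make serine, and 6 fell, led by Sds (-2.87), which breaks serine down, Gldc (-2.70), of the glycine cleavage system, and Srr (-1.29). In cysteine, taurine and glutathione metabolism 8 of 15 were lower, among them Csad (-2.71), which makes taurine, Suox (-2.10), which oxidises sulfite, and Mpst (-1.962). The 2 that rose were Slc7a11 (3.64), the cystine importer, and Ggt1 (3.74), which splits extracellular glutathione. Of 16 genes of folate transport and use, 8 changed (50%), a share near that of all genes: 5 fell, with Fpgs (-2.26), which adds the glutamate tail, Ftcd (-2.14) and Slc46a1 (-1.198), and 3 rose, Ggh (0.90), which removes the tail, Folr1 (3.66), a folate receptor, and Mthfd2l (0.87).

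In phosphatidylcholine remodelling and breakdown 8 of 15 genes were higher and 5 lower; with the same total per library 8 were higher and 0 lower, and with quantile normalization 8 and 2. Lpcat2 (2.62), an acyltransferase of lysophosphatidylcholine, Gdpd1 (2.48) and Pld2 (1.22), a phospholipase D, rose. Pnpla6 (-0.64), Lypla1 (-0.92) and Lypla2 (-0.97) fell. Among choline and betaine transporters, Slc44a4 (3.48), Slc44a2 (2.09) and Slc44a3 (0.51) rose, whereas Slc6a12 (-1.56), which carries betaine, fell. In the phosphatidylserine and phosphatidylethanolamine list 4 of 6 fell and 0 rose, with Etnppl (-3.33), which breaks down phosphoethanolamine, Selenoi (-1.38) and Phospho1 (-1.22).

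Among 13 genes of polyamines and methionine salvage, 46.2% changed, below the share of all genes, with 4 higher and 2 lower: Sat1 (1.35), Smox (1.79) and Sms (0.62) rose, Paox (-1.77) and Adi1 (-0.83) fell. Of further methylation genes, Inmt (-3.12) and As3mt (-0.66) fell, and of 9 cobalamin genes 5 fell (55.6%, near the share of all genes), with Mmab (-1.17), Mut (-1.27) and Mmachc (-0.81). No gene named from these lists changed sign with the same total per library, median-ratio size factors or quantile normalization. Among called genes not named, Pla2g6, Ptdss1, Gart and Lmbrd1 changed sign with the same total and Gclc with quantile normalization. The same total gave 2 higher and 1 lower for cobalamin, 6 and 3 for folate transport and use and 8 and 1 for polyamines. Over all genes it gave 9502 and 1259. With quantile normalization these lists gave 0 and 6, 2 and 9, and 2 and 1, against 4447 and 5223. With the same total, Pnpla6, Lypla1, Lypla2, Phospho1, Adi1, As3mt, Mmachc and Mut no longer passed. With quantile normalization, Lypla1, Slc44a3, Mthfd2l, Sms and Adi1 did not pass. Across all 9 lists, 0 genes passed in CLDN1 mAb against vehicle livers.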

How the data were processed

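RNA-seq values of 17 mouse livers, 1 library per mouse, were used as deposited. The deposited signal of each gene was its fragment count, scaled across libraries by the authors' cuffnorm run. Per the submitters' processing notes, the tool was Cufflinks 2.2.1 and the build mm10. Aligner, annotation release, strandedness and scaling option are not given in the sources used here. These are not raw counts, so no count model was used. In each library 97.8 to 98.3% of low values (up to 20 steps) lay within 0.05 of a whole multiple of 1 step, and the total divided by that step gave the estimated fragments. Libraries with more fragments measure low genes with less counting error.

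Genes with at least 10 normalized counts in at least 5 libraries were kept (18624 of 52545). A limma-trend model (limma 3.58.1, R 4.3.3) was fitted to log2(value + 1) of all 17 libraries, with no term but the group. Two-sided p-values were adjusted by Benjamini-Hochberg over the 18624 genes and called under 0.05. The fit was tested on simulated data. Each p-value reflects how much these mice varied. Groups came from the sample labels. Levels of different genes were compared only per kb of exon.

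The members, lists and tests were chosen with earlier results of these data known. Values are given for members that differed most or had the smallest p in each direction and for the partners of isoform pairs. Other members given in full were added by role after their values were seen. Alternatives changed the scaling, pseudocount, filter, block and libraries, and the hepatocyte-marker scaling was chosen after seeing the data. Promoter sequences came from RefSeq. Some genes of the neighbouring lists are not reported here.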

Additional observations from a re-analysis of the deposited data

Results flagged for a closer look

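Within groups, 14 of 105 combinations of a gene and a group held a mouse far from the rest by Dixon's test at the 95% level, which chance gives in about 1 in 20 groups. Of these, 9 were regular diet replicate 1. It was the highest regular diet liver for Gnmt (332210), Cbs (97765), Pcyt2 (64965), Aldh7a1 (64636), Pemt (46752), Shmt2 (31066) and Gamt (18891 normalized counts), and the lowest for Chdh (4667.4) and Mtr (336.55). CLDN1 mAb replicate 1 was the lowest of its group for Chdh (5642), Mat2b (1555.1) and Mtrr (342.52). Aldh1l2 was highest in CLDN1 mAb replicate 6 (125.08) and in vehicle replicate 6 (138.07).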

How the results depend on the processing

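The counts of genes called stayed within 1.5 times of those reported under every other scaling, pseudocount, filter and block tried, except hepatocyte-marker scaling. Leaving out 1 library at a time gave 25 to 31 calls in vehicle against regular diet, 19 to 24 in CLDN1 mAb against regular diet and 0 in CLDN1 mAb against vehicle. Of all genes, 45.6 to 57.4% were called in the first of these comparisons, 34.1 to 48.5% in the second and 0 in the third. Hepatocyte-marker scaling, chosen after seeing the data, gave 13 higher and 8 lower in vehicle and 13 calls, 5 of them lower, in CLDN1 mAb against regular diet.

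Some differences changed sign. In vehicle against regular diet, the same total per library gave 0.50 for Chkb, which then passed, 0.18 for Pcyt1a, 0.30 for Cept1 and 0.094 for Slc44a1, and quantile normalization gave 0.19 for Chkb, -0.10 for Mtr, -0.20 for Mtrr and -0.065 for Aldh1l2. Leaving out 1 library gave -0.19 to 0.028 for Chkb and -0.16 to 0.18 for Mtr.

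In CLDN1 mAb against vehicle, the same total gave -0.13 for Pcyt1b, -0.086 for Mat2a, -0.025 for Mtrr, -0.072 for Mthfd1l and -0.075 for Aldh1l2, and quantile normalization gave -0.087 for Mat2a. Leaving out 1 library gave -0.11 to 0.10 for Etnk1, -0.045 to 0.19 for Pcyt1b, -0.095 to 0.087 for Cept1, -0.012 to 0.25 for Mthfd1l and -0.026 to 0.29 for Aldh1l2.

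In CLDN1 mAb against regular diet, the same total gave 0.19 for Chkb, 0.18 for Pcyt1a, 0.083 for Cept1, 0.12 for Pemt, 0.082 for Chdh, 0.024 for Mat1a, 0.11 for Gamt and 0.40 for Mtr. Quantile normalization gave 0.21 for Pemt, 0.031 for Chdh, 0.44 for Mat1a and 0.010 for Gamt. Leaving out 1 library gave -0.46 to 0.017 for Gamt and -0.28 to 0.052 for Mtr. The cause was not tested.

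The labels state no pairing of mice by replicate number. Correlations of same-numbered deviations ran from -0.344 to 0.656. They cannot decide the point, as mice with different numbers were not compared. With the replicate block, 30 members were called in vehicle and 22 in CLDN1 mAb against regular diet, and 0 in CLDN1 mAb against vehicle. The share of all genes called was 49.3% in the first of these comparisons, 37.4% in the second and 0 in the third. Low levels limit Pcyt1b, Aldh1l2 and Mthfd1l in regular diet livers.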
